A study of Oryza sativa with 8 samples.

Results

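The regions described here are short stretches of the Nipponbare (Nip, a japonica rice) genome that carried an ATAC-seq peak in every library examined, under normal conditions (Normal) as well as under heat stress (HS). They were chosen by the peak lists themselves. Peaks of the 4 Nip lists on chromosomes 1 to 12 that overlapped or touched were merged, and a merged region was kept when each of the 4 lists had a peak in it and its merged width was below 1000 bp. This gave 17506 regions of 49606 merged Nip regions, or 35.3%, and 105171 merged regions in Nip and 93-11 together. A further 3126 Nip regions had a peak in all 4 lists but reached 1000 bp, so that 20632 regions in all were shared by the 4 lists. In the text below, members are the 17506 short regions and broad regions are the 3126 others.

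The libraries came from the aerial parts of 3-week-old seedlings grown in culture solution. HS seedlings were kept at 45 °C for 36 h, at high humidity and at less light than was stated for growth, whereas the humidity and light of the Normal seedlings over those hours were not stated, so the effects of temperature, light and humidity cannot be told apart. There were 2 Normal and 2 HS libraries of Nip, described as biological replicates, and 93-11 (an indica rice) had the same layout. The lists hold no gene expression values or marker genes, so the tissue label could not be checked against them.

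ATAC-seq uses the Tn5 transposase, which inserts adapters where DNA is not wrapped in nucleosomes. In plants such sites commonly lie at promoters and other regulatory DNA, where transcription factors hold nucleosomes aside, and many of them are open in most tissues and conditions. A peak is the stretch over which the pileup of fragments exceeded the background of its library. Its width therefore depends on how far the signal spread and on how readily its flanks passed the threshold. Column 5 of each list was read as the −log10 p of the peak. It rises with sequencing depth, so the percentile of a peak among the chromosomal peaks of its own list was used to compare libraries, with 100 as the highest value of the list.

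The Nip lists held 31399 and 29542 chromosomal peaks under Normal (replicates 1 and 2) and 36279 and 36743 under HS. The lists give no read counts, so depth is unknown. The background rate, recovered from the values that recur most in a list and rising with depth and fragment length, was 5.31 and 5.21 under Normal and 6.79 and 6.85 under HS, a difference of 29.7%. The part of this difference in any result below was not tested, and background and condition cannot be told apart by design.

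Members covered 10.6 Mb. Their merged width was 175 bp at the lowest, 592 bp at the median and 999 bp at the highest, with the middle 50% between 460 and 742 bp. In 98.3% of them (17202) each library had exactly 1 peak. Members held 56.2% and 59.6% of the chromosomal peaks of the Normal lists and 48.4% and 47.8% of those of the HS lists. Outside the members, the Normal lists held 13766 and 11929 peaks and the HS lists 18722 and 19185. The HS lists were thus longer by peaks that lay outside the members.

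Peaks at the members were wider under HS. The median width was 402 and 398 bp in the Normal libraries and 478 bp in each HS library. The mean of the library medians rose from 400.0 ± 2.83 bp (SD, n = 2) to 478.0 ± 0.0 bp (SD, n = 2), a difference of 78.0 bp or 19.5%. Region by region, the mean HS width minus the mean Normal width had a median of 58.0 bp and its middle 50% lay between -8.0 and 142.4 bp. The HS mean was the larger in 12625 members (72.1%), the smaller in 4846 and equal in 35. The rule capped the merged width, which the widths in all 4 libraries set, so these widths are given as a description without a test.

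In width at a member, a Normal and an HS library differed by more than replicates did. The median shift of 58.0 bp was itself smaller than the replicate differences. The median absolute difference in width at a member was 70.0 bp between the Normal replicates, 65.0 bp between the HS replicates and 97.0 to 99.0 bp between a Normal and an HS library. Each of the 4 pairs of an HS with a Normal library gave a median shift between 54.0 and 57.0 bp. Both HS widths exceeded both Normal widths in 42.3% of members (7398), against 43.8% of all 20632 shared regions. Both lay below in 9.47% (1657), against 9.71% of all shared regions. Most shared regions are members, so these shares are close by construction. In the 3126 broad regions alone the shares were 52.7% above and 11.1% below. Both shares were higher there than among members. The cap divides the 2 sets by merged width, which the widths in all 4 libraries set. A region that widened past the cap is broad by the rule, so no conclusion is drawn from this difference. Peaks outside the members were also wider in the HS lists, with a mean of the library medians of 279.5 bp under Normal and 324.0 bp under HS, a difference of 15.9%. These peaks include those of broad regions and of regions found in fewer lists, so they are not the same regions in each list.

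**Figure D1:**
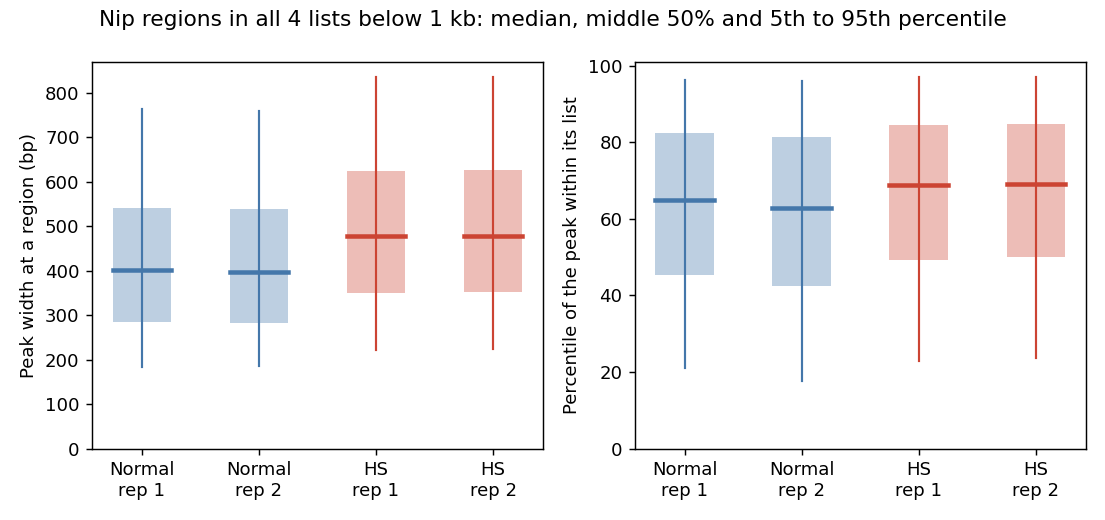
Peak width in bp (left) and percentile of the peak within its list (right) at the 17506 members, by library. Thick lines are medians, boxes the middle 50% and thin lines the 5th to 95th percentile. The median width was 402 and 398 bp under Normal and 478 bp in both HS libraries, and the median percentile was 65.0 and 62.7 under Normal and 68.8 and 69.2 under HS.

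Widening took place on both sides of a peak to a similar extent. Among the 17202 members with 1 peak per list, the left edge lay 23.5 bp further out under HS at the median and the right edge 21.5 bp, with 68.5% and 68.3% of edges displaced outward. Both edges moved outward in 48.5% of these members, both moved inward in 11.1%, and the left edge alone moved outward in 3445 members and the right edge alone in 3410. The centre of the peak differed by 37.0 bp at the median, in absolute terms, between the Normal replicates and by 34.5 bp between the HS replicates. Between a Normal and an HS library it differed by 41.0 to 42.0 bp, somewhat more than between replicates, and the signed displacement of the HS mean was -0.75 bp.

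The within-list percentile of the members was also higher under HS, but this depended on the length of the lists. Its median was 65.0 and 62.7 in the Normal libraries and 68.8 and 69.2 in the HS libraries. The Normal mean of the library medians, 63.8 ± 1.60 (SD, n = 2), was exceeded by the HS mean, 69.0 ± 0.305 (SD, n = 2), by 5.16 points. The exact two-sided permutation test over the 6 assignments of the libraries gave p = 0.333, the smallest value that 2 libraries against 2 allow. The shift of a single region was smaller, with a median of 2.62 points and a middle 50% between -4.35 and 12.7 points. The 4 pairs of an HS with a Normal library gave medians between 1.51 and 3.42 points. The lower values were those against Normal replicate 1, and without Normal replicate 2 the median shift was 1.54 points.

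The percentile rise was not found in lists of equal length. When each list was reduced to its 29542 highest peaks and the regions were rebuilt, 16531 regions met the rule. Their median percentile was 64.7 and 64.7 under Normal and 63.9 and 64.0 under HS, and the median shift of a region was -0.842 points. Ranking members among the 20632 shared regions, which also leaves out peaks found in fewer lists, gave library medians of 48.3 and 48.1 under Normal and 47.7 and 47.75 under HS and a median shift of -0.514 points. The width shift did not reverse under equal length and was 60.5 bp at the median. The −log10 p itself had medians of 16.4 and 15.3 under Normal and 24.7 and 25.1 under HS. The fold over background implied by these values was 6.30 and 6.10 under Normal and 7.03 and 7.06 under HS. This fold assumes the background of the whole library and understates peaks scored against a higher local one.

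Both directions of change occurred among the members. Both HS percentiles exceeded both Normal percentiles in 38.6% of members (6754), against 39.3% of all shared regions, and both lay below in 21.4% (3740), against 21.7% of all shared regions. In lists of equal length the shares were 26.6% and 32.4% of the 16531 regions that met the rule. The shares of all shared regions in those lists are not given here, so this reversal was not compared with theirs. The SD of the shift over members was 16.1 points. The SD between replicates on the same scale, the difference of the replicates divided by the square root of 2, was 8.98 points under Normal and 7.16 points under HS. For width the SD over members was 134.0 bp, against 99.6 and 95.5 bp between replicates. Members therefore differed in their shift by more than the replicates did at the same region.

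**Figure D2:**
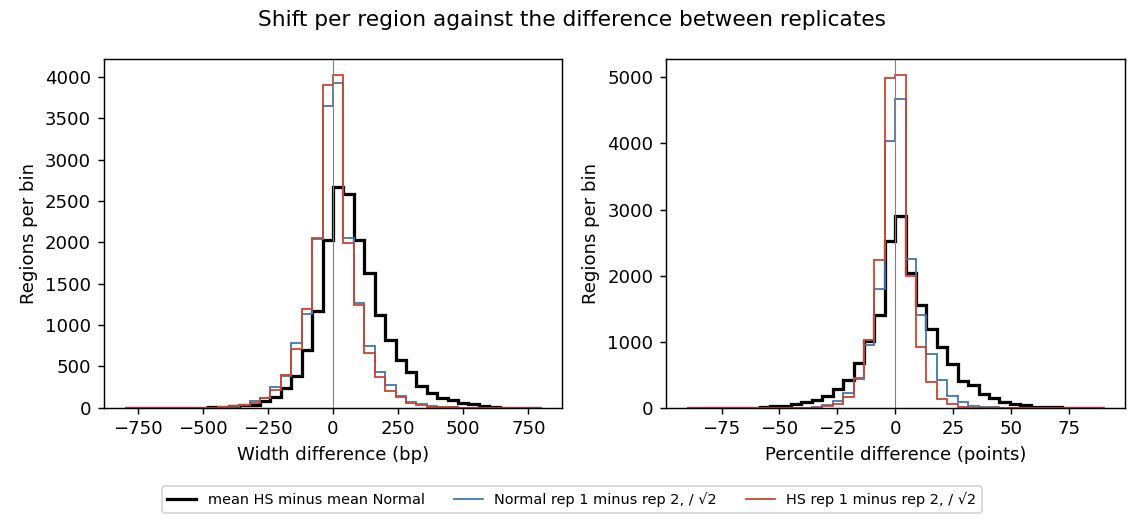
Number of members per bin of the difference in width (left, bp) and in percentile (right, points). The black line is mean HS minus mean Normal, and the coloured lines are replicate 1 minus replicate 2 of each condition divided by the square root of 2. The black width curve sits to the right of 0, with a median of 58.0 bp, and the black percentile curve is wider than the replicate curves, with an SD of 16.1 against 8.98 and 7.16 points.

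The percentile shift fell with the strength of a member, and depended on the length of the lists. To keep the noise of 1 library out of the comparison, members were grouped by their percentile in Normal replicate 1, and the shift was measured from Normal replicate 2 to the mean of the HS libraries. The median shift was 11.8 points in the 849 members at or below percentile 20, and 11.1 points in the 2646 members between 20 and 40. It was 8.41 points between 40 and 60 (4052 members), 3.89 points between 60 and 80 (4980) and 0.0996 points above 80 (4979). Their median width shift fell in the same order, from 115.5 bp through 93.0, 77.0 and 56.8 bp to 38.5 bp. With lists of equal length, an alternative chosen after seeing the data, the percentile shifts of the same 5 classes were 4.05, 2.17, -0.0609, -2.41 and -1.14 points, and the width shifts 120.0, 105.5, 79.5, 55.5 and 38.5 bp. On the rank among shared regions the shifts were 3.38, 3.59, 1.81, -2.11 and -1.64 points. A longer list raises low percentiles most, percentiles are bounded at 100, and a weak region that lost its HS peak is no member, so these shifts are given as a description. Grouped by width in Normal replicate 1, the 5850 narrowest members (up to 321 bp) widened by 70.5 bp, the 5838 between by 61.5 bp and the 5818 widest (above 488 bp) by 53.5 bp, under a cap that also leaves wide members less room.

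At the same percentile, HS peaks were wider than Normal peaks. Members were divided into 10 groups by the percentile of their peak in each library separately. In 10 of 10 groups both HS medians exceeded both Normal medians, and the difference of the means lay between 45.0 and 69.5 bp. With lists of equal length, an alternative chosen after seeing the data, this also held in 10 of 10 groups, with differences between 58.25 and 119.0 bp. Between percentiles 60 and 70 the median width was 379.0 and 395.5 bp under Normal and 451.0 and 452.0 bp under HS. Above percentile 90 it was 560.0 and 565.0 bp under Normal and 614.5 and 612.0 bp under HS. Similarly, 2925 members shifted by less than 2 points in percentile, and 72.3% of these were wider under HS, by 44.5 bp at the median. Their library medians were 484.0 and 478.0 bp under Normal and 534.0 and 540.0 bp under HS.

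**Figure D3:**
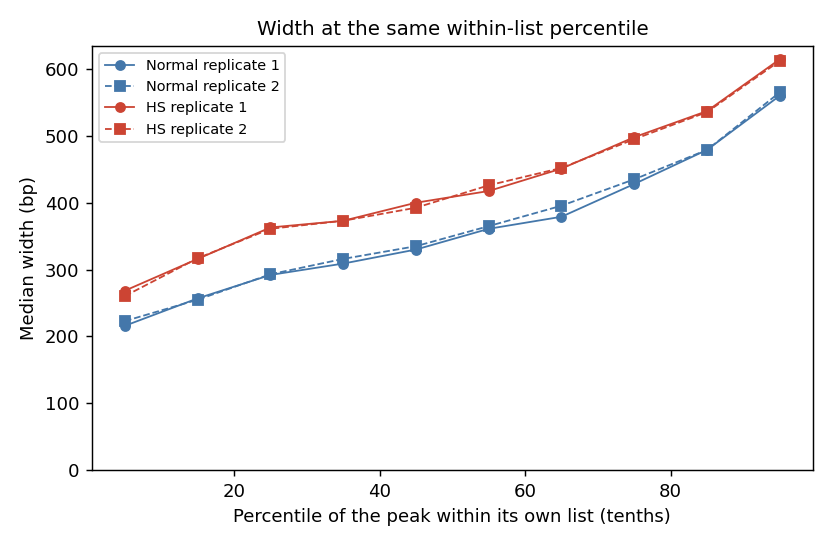
Median peak width in bp of the members in each of 10 equal classes of the within-list percentile, by library (Normal blue, HS red, replicate 1 circles, replicate 2 squares). The 2 libraries of each condition lie nearly on each other, and the HS lines lie above the Normal lines in all 10 groups, by 45.0 to 69.5 bp.

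Width and percentile moved together in part. Across the 17506 members, which share the 4 libraries, the width shift correlated with the percentile shift at r = 0.494 (Spearman's rho 0.463). Taking the width shift from one replicate number and the percentile shift from the other, so that no library entered both, gave r = 0.309 and 0.317. Members that were higher and wider under HS made up 50.7%, those lower and narrower 17.6%, those lower but wider 21.4% and those higher but narrower 10.1%. More than 1 in 5 members therefore fell in within-list percentile while gaining width. This percentile depends on list length. The median absolute difference between replicates, 6.41 points under Normal and 5.19 under HS, exceeded the median shift of 2.62 points, so the direction at a single member is uncertain. The percentile shift of replicate 1 correlated with that of replicate 2 at r = 0.598 and the width shift at r = 0.313. All of these are descriptions across regions, which are not independent replicates.

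Members whose rank changed relative to the other shared regions were called with limma on the normal scores of the rank of −log10 p among all 20632 shared regions, which leaves out list length and any factor common to all regions. At a Benjamini-Hochberg adjusted p below 0.05, 738 members (4.22%) were called higher under HS, against 4.61% of all shared regions. The members called lower numbered 741 (4.23%), against 4.36% of all shared regions. Members make up 17506 of the 20632 shared regions, so their share and that of all shared regions are close by construction. The share of all shared regions was slightly the higher in both directions, and whether members and broad regions differed in their calls was not tested. Calls among members were balanced between the directions. This balance follows from the scale. With log2 values centred on the median, 40.9% of 2585 called members were higher, and with log2 values not centred 93.7% of 5989. Without either HS replicate no member was called by limma, although 3177 (without HS replicate 1) and 3229 (without HS replicate 2) had an unadjusted p below 0.05. Without Normal replicate 1 the calls numbered 1466 higher and 1342 lower, and without Normal replicate 2 they numbered 1403 and 1211.

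The members called higher had lower percentiles and narrower peaks under Normal than under HS. Calls were made on the −log10 p, so the percentile differences below follow from the choice. Across members, width correlated with percentile within each library (r = 0.406 to 0.474), so the width differences are not independent of that choice. Their median percentile was 38.0 and 33.4 under Normal and 80.3 and 80.1 under HS, and their median width 339.0 and 331.0 bp under Normal and 576.5 and 579.0 bp under HS. Of the 738, 717 were wider under HS and 624 had both HS widths above both Normal widths. The members called lower had a median percentile of 71.4 and 69.3 under Normal and 35.1 and 35.6 under HS, and a median width of 453.0 and 462.0 bp under Normal and 376.0 and 370.0 bp under HS. Of the 741, 559 were narrower under HS and 181 were wider. The width shift was 193 bp at the median in the members called higher and -72.0 bp in those called lower, and 58.0 bp in the 16027 not called. Most of the members called lower thus narrowed, whereas of all members with a lower percentile 3747 were wider and 3080 narrower.

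The members with the largest rise in percentile moved from the lower part of the Normal lists to the upper part of the HS lists. Positions are counted from 1 on the chromosomes of the Nip lists, whose build was not stated. On chromosome 8 from 23626898 to 23627540 the percentile was 2.18 and 11.0 under Normal and 86.2 and 90.3 under HS. There the −log10 p was 3.38 and 4.48 under Normal and 45.3 and 56.0 under HS, and the width 191 and 238 bp under Normal and 621 and 640 bp under HS. The limma estimate there was 3.26 ± 0.319 normal-score units (SE, adjusted p = 0.0185). Members with the largest rise or fall were chosen for percentiles that did not overlap between the groups. Separation in percentile, and in the −log10 p that it ranks, is therefore no separate result. Their limma estimates rest on the same values and are given as a description. On chromosome 4 from 20451175 to 20451987 the −log10 p was 5.49 and 4.48 under Normal and 55.3 and 55.7 under HS, whereas the width changed less, from 481 and 737 bp to 797 and 793 bp. On chromosome 3 from 10689788 to 10690240 the −log10 p was 3.38 and 3.96 under Normal and 31.4 and 33.5 under HS. Here the peak stayed short, at 304 and 244 bp under Normal and 382 and 453 bp under HS. Members on chromosome 6 (3063796 to 3064315) and chromosome 2 (33360836 to 33361819) shifted by 73.3 and 71.2 points. Another chromosome 3 member, from 10570250 to 10570961, ranked second by the limma estimate (2.96 ± 0.240, SE, adjusted p = 0.0185) and reached the highest HS values of these members. Its −log10 p was 5.73 and 6.63 under Normal and 76.5 and 102 under HS.

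The members with the largest fall lay at percentiles between 4.21 and 24.4 of the HS lists. The rule required a peak under HS, and low HS percentiles follow from the choice of the largest falls. On chromosome 3 from 6282680 to 6283537 the −log10 p was 35.9 and 29.9 under Normal and 3.98 and 3.72 under HS. The percentile there was 86.5 and 83.4 under Normal and 4.85 and 4.21 under HS, and the peak narrowed from 681 and 855 bp to 189 and 378 bp (limma estimate -3.54 ± 0.206, SE, adjusted p = 0.0185). On chromosome 5 from 20601290 to 20602101 the −log10 p was 57.6 and 35.2 under Normal and 7.22 and 5.31 under HS. On chromosome 2 from 9839325 to 9839936 the percentile was 81.0 and 64.8 under Normal and 9.04 and 5.85 under HS. Both others were on chromosome 5, from 8025744 to 8026497 and from 2147002 to 2147452, with shifts of -64.4 and -62.7 points. All 5 were narrower in both HS libraries than in either Normal library.

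**Figure D4:**
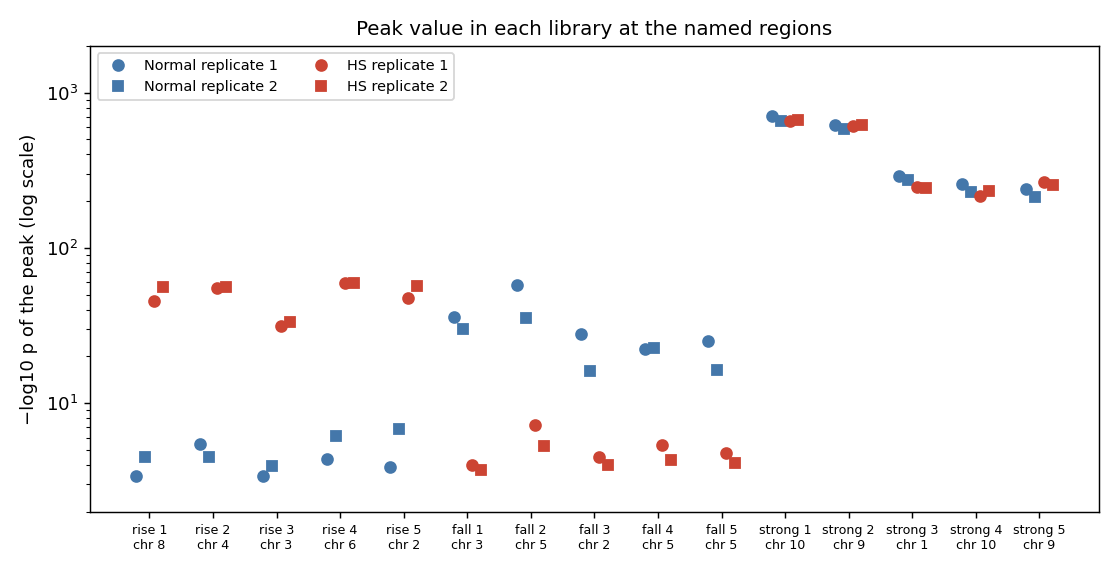
−log10 p of the peak in each library (log axis) at the 5 members with the largest rise in percentile, the 5 with the largest fall and the 5 with the highest lowest value, with the chromosome under each. Normal libraries are blue and HS libraries red. Rising members lie below 7 under Normal and above 31 under HS, falling members lie below 8 under HS, and the strongest members lie at 213 or above in every library.

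The largest changes in width took a peak from the narrow end of the members to the wide end, or back. On chromosome 8 from 3622749 to 3623698 the width was 161 and 187 bp under Normal and 881 and 950 bp under HS. On chromosome 1 from 2556923 to 2557833 it was 165 bp in both Normal libraries and 911 and 880 bp under HS. Increases of 714.5, 695.0 and 684.0 bp followed on chromosome 8 (26761280 to 26762253), chromosome 3 (738714 to 739670) and chromosome 7 (23038804 to 23039801). By limma, 3 of these 5 were called higher, and the second on chromosome 8 and that on chromosome 7 were not (adjusted p = 0.129 and 0.0780). In the opposite direction, the width on chromosome 11 from 16170429 to 16171395 was 815 and 967 bp under Normal and 280 and 178 bp under HS, and on chromosome 8 from 8154592 to 8155426 it was 770 and 835 bp under Normal and 164 and 208 bp under HS. Changes of -543.0, -539.5 and -532.5 bp followed on chromosome 8 (22408961 to 22409898), chromosome 3 (32586701 to 32587619) and chromosome 11 (13495448 to 13496443). All 5 narrowed members were called lower by limma, with adjusted p between 0.0185 and 0.0230.

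The 5 members with the highest lowest value over the 4 libraries were strong in every library by that choice, and their percentiles were at the upper limit, so their values are given as a description. On chromosome 10 from 20744185 to 20744684 the −log10 p was 710 and 662 under Normal and 655 and 668 under HS, the highest chromosomal value of each list. Its width was 462 and 471 bp under Normal and 500 and 471 bp under HS. On chromosome 9 from 4560259 to 4560786 the −log10 p was 618 and 583 under Normal and 611 and 616 under HS. On chromosome 1 from 33747930 to 33748189 a peak of only 258 and 259 bp under Normal and 259 and 252 bp under HS carried a −log10 p of 290 and 276 under Normal and 247 and 242 under HS. Here both HS values lay below both Normal values, although the median value of the members rose. The remaining pair lay on chromosome 10 (11181899 to 11182753) and chromosome 9 (2722970 to 2723926).

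Members were spread over all 12 chromosomes, with between 923 (chromosome 12) and 2508 (chromosome 1) on each. Their density per Mb, up to the last peak of the chromosome, ranged from 32.4 on chromosome 11 to 59.3 on chromosome 3. The median gap between neighbouring members was 10761 bp, and 6.94% of gaps were under 1 kb. The width shift was positive on 12 of 12 chromosomes, from 50.2 bp on chromosome 7 to 63.5 bp on chromosome 6. The percentile shift varied more, from 0.403 points on chromosome 12 to 4.21 points on chromosome 4. On chromosome 12 the 4 pairs of an HS with a Normal library gave -0.149 to 1.35 points, and on chromosome 4 they gave 2.05 to 5.07 points. On the rank among shared regions it ranged from -2.74 points on chromosome 12 to 0.411 on chromosome 4. On chromosome 11, 1.5% of the 931 members were called higher and 6.55% lower, against 1.59% and 6.72% of all shared regions there. On chromosome 1, 5.22% of the 2508 members were called higher and 3.59% lower, against 5.70% and 3.65% of all shared regions there.

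The percentile shift also differed along the chromosomes. Each chromosome was divided into 10 equal parts up to its last peak. The median shift was 2.38 points in part 1, 0.0302 in part 4 and -0.369 in part 5, and then 4.38 in part 7, 5.03 in part 8 and 3.46 in part 10. Parts 4 and 5 also held the fewest members, 1072 and 1097 against 2460 in part 10. Members of part 5 were called higher in 2.01% and lower in 6.75% of cases, and those of part 8 in 6.25% and 2.96%. The shares of all shared regions by part are not given here, so whether this pattern is particular to the members was not tested. On the rank among shared regions, where list length plays no part, the shift was -4.70 points in part 5 and 1.56 in part 8. On 12 of 12 chromosomes the median shift of parts 4 and 5 together was lower than that of parts 7 and 8. It ranged from -2.41 to 2.19 points in the former and from 1.78 to 6.42 points in the latter. These parts were compared after their values had been seen, and no test was made. Width followed the same course more weakly, with a median shift of 41.0 bp in part 5 and 63.5 bp in part 8.

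**Figure D5:**
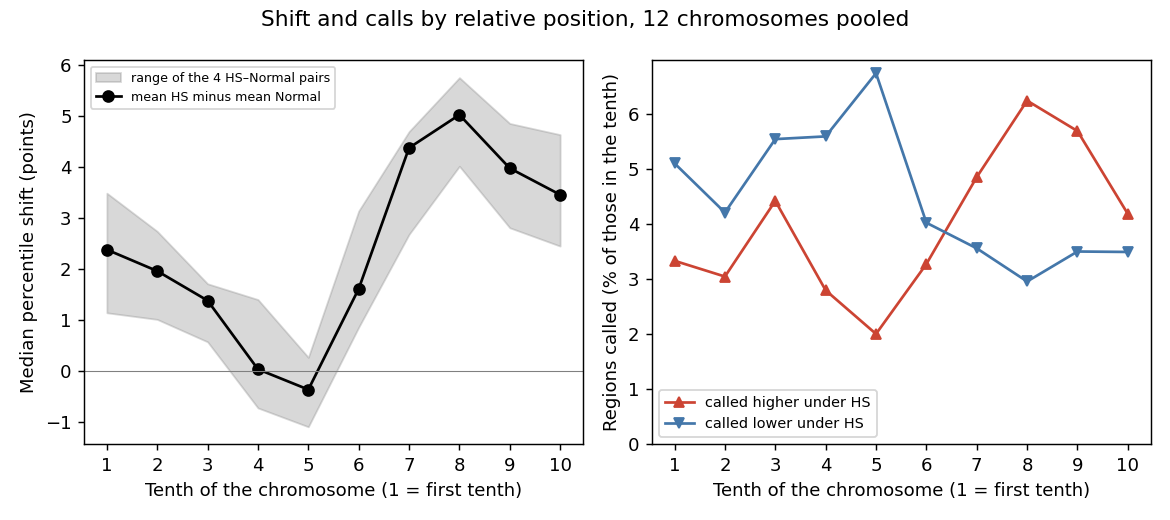
Left, median percentile shift of the members in points in each of 10 equal parts of the chromosome, 12 chromosomes pooled, with the range of the 4 pairs of an HS with a Normal library in grey. Right, percentage of the members of each part called higher (red) or lower (blue) by limma, without the shares of all shared regions. The shift was lowest in part 5 (-0.369 points) and highest in part 8 (5.03 points), and more members were called lower than higher in parts 1 to 6 and the reverse in parts 7 to 10.

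Close neighbours resembled each other only slightly. For adjacent members less than 500 bp apart (449 pairs), the rank shift of one member in one replicate number correlated with that of its neighbour in the other at r = 0.228. The coefficient was 0.165 between 500 and 1000 bp (765 pairs) and between 0.0488 and 0.122 at greater distances. The same correlation of a member with itself across replicate numbers was 0.636. A region's shift was thus repeated between replicates far better than it was shared with the next region. These coefficients describe pairs measured in the same 4 libraries.

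Broad regions were compared with the members as the most similar Nip regions. Their median width was 869.0 and 848.5 bp under Normal and 1035.0 and 1036.5 bp under HS, a difference of 20.6%, close to the 19.5% of the members. Their median percentile was 73.3 and 72.2 under Normal and 78.4 in both HS libraries. The percentile rise of the members minus that of the broad regions was -0.514 points, which 4 of the 6 assignments of the libraries reached (exact two-sided permutation p = 0.667). The difference was -2.09 points with lists of equal length and -2.64 points on the rank among shared regions (exact permutation p = 0.333 each, the smallest possible). On that rank the mean of the library medians went from 48.2 to 47.7 in the members and from 60.4 to 62.6 in the broad regions. At the threshold itself, the 566 members from 950 to 999 bp widened by 137 bp at the median and the 500 regions from 1000 to 1049 bp by 151 bp. There were 5 regions of 999 bp and 8 of 1000 bp. In the first 3 members of 999 bp in genome order, on chromosomes 2 (1193389 to 1194387) and 3 (1638752 to 1639750 and 1723078 to 1724076), the width changed by 355.0, -144.0 and 296.5 bp. In the first 3 regions of 1000 bp, on chromosome 1 (4165226 to 4166225, 14498201 to 14499200 and 18038162 to 18039161), it changed by 163.0, -147.0 and 343.0 bp.

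The same rule applied to 93-11 found 8789 regions, which became narrower under HS. Their median width was 394 and 408 bp under Normal and 312 and 316 bp under HS, and their median percentile was 82.3 and 81.7 under Normal and 78.8 and 76.8 under HS. In 93-11 the HS lists were the shorter ones, with 24940 and 22684 chromosomal peaks against 31584 and 30632, and the background rate changed by -29.1%. The percentile shift in Nip exceeded that in 93-11 by 9.39 points, which 2 of 36 assignments of the condition within the cultivars reached (exact two-sided permutation p = 0.0556, the smallest possible). With lists of equal length in each cultivar this difference was -1.22 points, and on the rank among shared regions -0.320 points (exact permutation p = 0.333).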

How the data were processed

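According to the methods of the study, reads were trimmed with Cutadapt, mapped with Bowtie2, filtered for mapping quality, proper pairs and organelle reads, freed of duplicates, and used to call narrow peaks with MACS2 in each library. The submitters' processing notes name BWA 0.7.10-r789, SAMtools 0.1.19, deepTools 2.0 and MACS2 2.1.1 without their roles. The genome build, the background model and any shift for the Tn5 offset were not given in the sources used here. The deposited lists give sequence, start, end, name and 1 unlabelled value, which was read as the −log10 p of the peak because its most frequent values lie on Poisson tails. A genome or annotation of the build was not used here, so sequences, motifs, gene starts and gene lists were not analysed.

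Where a library had several peaks in a region, their widths were summed and the highest value was taken. Ties shared the mean rank. The background rate was the Poisson rate that best matched the 12 most frequent values of a list. Rank scores were tested with limma 3.58.1 (R 4.3.3) without a trend, and adjusted by Benjamini-Hochberg over all 20632 shared regions. The functions were tested on simulated data. Library medians were compared by exact permutation. Limma p-values rest on the spread between 2 libraries per group, moderated across all shared regions. Permutation p-values give the share of library assignments whose difference was at least as large as the observed one. Named regions are the 5 members with the largest shift in each direction of percentile and of width whose groups did not overlap, the 5 with the largest limma estimate in each direction, the 5 highest by their lowest value, and the first 3 in genome order on either side of the width cap. The members and tests were chosen with earlier results of these data known. Alternatives were other width caps, merging and percentile rules, equal list length, a replicate block and leaving out each library.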

Additional observations from a re-analysis of the deposited data

Results flagged for a closer look

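Regions chosen by the same rule widened under HS in Nip and narrowed in 93-11. For the median width, HS minus Normal came to 78.0 bp (Nip) against -87.0 bp (93-11), a difference of 165.0 bp, and for the median −log10 p it was 9.03 and -4.28, a difference of 13.3. These differences were not tested. For the median percentile it was 5.16 and -4.24 points, a difference of 9.39 points (exact permutation p = 0.0556), which became -1.22 points with lists of equal length. On the rank among shared regions the medians changed by -0.473 in Nip and -0.153 in 93-11. HS minus Normal of the background rate was 29.7% in Nip and -29.1% in 93-11, and its part in these differences was not tested.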

How the results depend on the processing

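The percentile shift of 2.62 points reversed with lists of equal length (-0.842) and on the rank among shared regions (-0.514), and was positive under all other alternatives (1.54 to 3.11 points). The width shift of 58.0 bp was positive throughout, with 33.0, 51.5 and 64.0 bp at caps of 500, 800 and 1500 bp, 66.0 bp with no cap, 54.0 bp for peaks of at least 4 times the background, 60.5 bp with lists of equal length (an alternative chosen after seeing the data) and 53.5 to 62.0 bp without 1 library. Members called higher numbered 5610 with log2 values not centred, 1643 with a mean-variance trend and 0 to 1466 without 1 library. Members called lower numbered 1527 with centred and 379 with uncentred log2 values, 1629 with the trend and 0 to 1342 without 1 library. Of all 20632 shared regions, 6722 were called higher with log2 values not centred and 2085 with the trend. Those called lower numbered 1861 with centred and 460 with uncentred log2 values, and 2027 with the trend. Members make up 17506 of these regions, so the member counts largely follow by construction. Whether members and broad regions differed in these calls was not tested. With 1 library left in a condition, that library was assumed to vary like the others.

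No pairing by replicate number was seen in these values, as the replicate differences of Normal and HS correlated at 0.00686 for percentile and 0.00575 for width. The labels do not say whether libraries of the same replicate number were paired. With a replicate block the calls among members were 620 higher and 601 lower, against 799 and 717 among all 20632 shared regions. The shifts with the block are by construction 2.62 points and 58.0 bp, from pairs of 1.51 and 3.42 points.

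The percentile shift of Nip minus 93-11 (9.39) reversed with lists of equal length (-1.22, exact permutation p = 0.0556) and on the rank among shared regions (-0.320). That of members minus broad regions (-0.514) reversed at a cap of 1500 bp (0.905) and with 1 peak in each list (0.0792), and was -1.98 at a cap of 500 bp, -2.09 with lists of equal length and -2.64 on the rank among shared regions (exact permutation p = 0.333 each, the smallest possible). These alternatives were chosen after seeing the data. Depth is unknown, and −log10 p and width can both rise with it.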
